A study of Mus musculus with 28 samples.

Results

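The genes described here are 10 non-fibrillar collagen genes, out of 25719 genes counted in mouse tail tendon by bulk RNA-sequencing. They were taken by name and comprise the collagen VI chains *Col6a1*, *Col6a2* and *Col6a3*, the FACIT genes *Col12a1*, *Col14a1*, *Col16a1* and *Col22a1*, the anchoring fibril gene *Col7a1*, and the transmembrane collagens *Col13a1* and *Col23a1*. The study compared Fosl-2(Tg) mice with WT mice at an early and an established stage of a fibrotic phenotype, with 1 library per mouse. The early cohort held 7 WT and 8 Fosl-2(Tg) mice aged 6 to 8 weeks, and the established cohort held 6 WT and 7 Fosl-2(Tg) mice older than 14 weeks. The labels of all 28 mice give the strain C57BL/6, and the study's reporting summary C57Bl6/J. Fosl-2(Tg) mice carry the murine *Fosl2* gene, which encodes the AP-1 transcription factor subunit Fosl-2, under the H2Kb promoter of a class I major histocompatibility gene, with eGFP joined to it, at a random insertion site. That promoter is active in most cell types, so the transgene is not restricted to tendon cells, and the WT mice were nontransgenic animals of the same breeding. The 15 early mice were males and the 13 established mice were 11 females and 2 males, 1 per genotype, so that stage and sex cannot be told apart.

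Non-fibrillar collagens organize the fibrils that carry load in tendon rather than forming those fibrils themselves. Collagen VI assembles from the products of *Col6a1*, *Col6a2* and *Col6a3* into beaded microfilaments around tendon cells, and loss of any of these chains causes muscle and joint disease. FACIT collagens sit on the surface of collagen I fibrils and limit or guide their lateral growth, with collagens XII and XIV as the main FACITs of tendon and collagen XXII at the junction of muscle and tendon. Collagen VII forms the anchoring fibrils that hold epithelium to the dermis, and collagens XIII and XXIII span the cell membrane at sites of adhesion.

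On GRCm39, the collagen VI genes *Col6a1* (chr10:76543440-76562283) and *Col6a2* (chr10:76429660-76459549) are neighbors on the minus strand of chromosome 10, and *Col6a3* lies on chromosome 1 (chr1:90693645-90771780, minus strand). The other members are *Col12a1* (chr9:79506268-79626135, minus), *Col14a1* (chr15:55171140-55384199, plus), *Col16a1* (chr4:129941154-129993076, plus), *Col22a1* (chr15:71667644-71906095, minus), *Col7a1* (chr9:108782647-108813943, plus), *Col13a1* (chr10:61674015-61814940, minus) and *Col23a1* (chr11:51180566-51474745, plus). Exons of *Col7a1*, *Col12a1*, *Col13a1*, *Col14a1*, *Col16a1* and *Col22a1* overlap opposite-strand noncoding genes, whose reads could not be told apart from theirs because the strand setting is not given in the sources used here. Since the transgene encodes an AP-1 subunit, the promoters in the RefSeq table (GRCm38.p6, 250 bases before to 50 after each start) were searched on both strands for the AP-1 words TGACTCA and TGAGTCA. Windows were present for 7 of the 10 members, and only that of *Col6a1* held such a word, as did 5.20% of all 32851 windows in the table. The *Col6a1* word begins 90 bases before the start, and it is printed in capitals with its flanks because it is the sole match among the members (chr10:76726117-76726145 on GRCm38.p6, minus strand).
Col6a1: tgctgatgctgTGACTCActcagctttga
The match is a description of these letters and no measurement of binding was made.

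Library totals ranged from 9645598 to 66894396 counts. *Fosl2* itself had a mean of 111 ± 32.4 CPM (reads of the gene relative to the TMM-scaled library total; SD, n = 6) in established WT and 142 ± 17.2 CPM (n = 7) in established Fosl-2(Tg) mice, a log2 fold change of 0.38 ± 0.15 (SE) with an adjusted p of 0.141 (edgeR). In the early cohort its log2 fold change was 0.20 ± 0.24 (adjusted p = 0.918), and the counts do not separate transgene from endogenous transcripts. Some libraries differed from others of their group in marker levels. Established Fosl-2(Tg) mice 1 and 5, the latter the male, stood apart with *Col1a1* at 1827 and 973 CPM, where the other 5 mice of the group ranged from 9824 to 28312 CPM. The summed level of 10 tenocyte markers was 93506 to 185277 CPM in established WT and 3679 to 74984 CPM in established Fosl-2(Tg) mice. That list includes *Col1a1* and *Col1a2*, which alone averaged 73711 and 40848 CPM in established WT mice. The sum thus largely follows collagen I and is no separate measure of tenocyte number. Muscle RNA also varied, since the sum of 13 skeletal muscle markers ranged from 77.9 to 21773 CPM in established WT mice and from 53.3 to 6941 CPM in established Fosl-2(Tg) mice. Keratinocyte markers summed to no more than 52.1 CPM in any mouse, with *Krt5*, *Krt14*, *Krt1*, *Krt15* and *Dsg3* under 1 CPM throughout. Their median sum was 27.7 CPM in early WT and 27.3 CPM in early Fosl-2(Tg) mice, against 41.0 and 41.9 CPM in the established groups. These markers thus differed with stage, and a stage fit with their score cannot fully separate score from stage. Summed macrophage markers were 658 to 1132 CPM in established WT and 835 to 1442 CPM in established Fosl-2(Tg) mice. The part of these cell types in the results below was not tested beyond the fits named beside them, and in bulk tissue fewer cells of a type cannot be told apart from less RNA per cell.

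To compare levels between genes, CPM was divided by the length of the canonical transcript in kilobases. On this scale the collagen VI chains and *Col12a1* formed the upper tier in all 4 groups. In early WT tendon, the level was 595 ± 151 CPM per kb for *Col6a1*, 382 ± 129 for *Col6a3*, 371 ± 122 for *Col6a2* and 178 ± 35.0 for *Col12a1* (SD, n = 7). *Col16a1* followed at 75.0 ± 26.6 CPM per kb, with no overlap with *Col12a1* above or *Col14a1* below. *Col14a1*, *Col13a1*, *Col22a1*, *Col23a1* and *Col7a1* lay between 8.22 and 0.265 CPM per kb, and most neighbors in this lower tier overlapped. The order of the upper tier was different in the established mice. *Col12a1* (211 ± 23.8 CPM per kb) was level with *Col6a2* (206 ± 31.8) in WT when canonical transcripts were used, but not per length of the union of exons (163 against 112 CPM per kb), which also put *Col6a2* at 201 CPM per kb in early WT. In Fosl-2(Tg) tendon it stood second at 123 ± 39.5, below *Col6a1* at 202 ± 107 and overlapping all 3 collagen VI chains. Per canonical transcript the ranges of these neighbors over mice overlapped, and their levels within single mice were not compared.

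The established comparison asked how the members differ once the phenotype is fully present. The collagen VI chains were about 2-fold lower on average in Fosl-2(Tg) than in WT tendon, but none passed the adjusted threshold of 0.05. *Col6a1*, the α1 chain, ranged from 1245 to 1805 CPM (median 1628) in WT and from 157 to 1354 CPM (median 862) in Fosl-2(Tg) mice. Of the 7 Fosl-2(Tg) mice, 6 lay below all WT mice, and the groups overlapped through mouse 4. *Col6a2*, the α2 chain, ranged from 985 to 1562 CPM (median 1196) in WT and from 117 to 973 CPM (median 629) in Fosl-2(Tg) mice, without overlap. *Col6a3*, the large α3 chain, ranged from 1892 to 2919 CPM (median 2144) in WT and from 166 to 1597 CPM (median 1091) in Fosl-2(Tg) mice, again without overlap. *Col6a2* and *Col6a3* were the 2 of 10 members whose Fosl-2(Tg) mice were all below the WT minimum, against 2.56% of the 15862 genes tested. This separation holds for scaled levels only. The TMM factors were 1.19 to 1.48 in established Fosl-2(Tg) and 1.03 to 1.09 in established WT mice. Relative to unscaled totals, Fosl-2(Tg) mouse 7 was above WT mouse 6 for both genes, so the groups overlapped. The log2 fold changes were -0.93 ± 0.37 (SE) for *Col6a1*, -1.03 ± 0.38 for *Col6a2* and -1.18 ± 0.41 for *Col6a3*, with adjusted p values of 0.128, 0.107 and 0.0907 in edgeR's quasi-likelihood test.

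**Figure D1:**
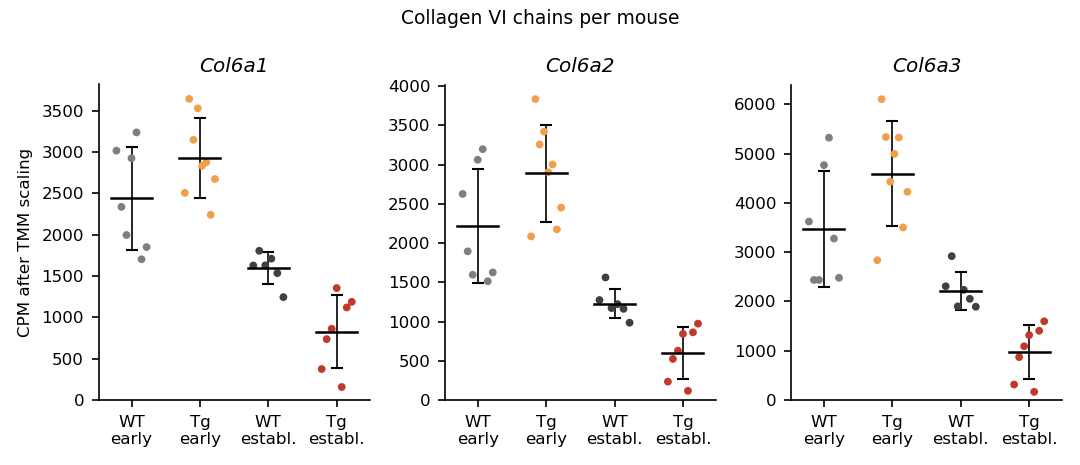
Levels of the collagen VI chains in CPM after TMM scaling (vertical axes, from 0) for each mouse in the 4 groups (points, in order of replicate number), with the mean (line) and SD (bars). In the established cohort all Fosl-2(Tg) points for *Col6a2* and *Col6a3* are under all WT points, with mice 1 and 5 lowest, while early groups overlapped.

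Mice 1 and 5 had the lowest values of all 3 chains, with *Col6a3* at 315 and 166 CPM against 870 to 1597 CPM in the other 5. Without these libraries, an alternative added after seeing the data, the log2 fold changes were smaller in size and their errors smaller, at -0.59 ± 0.17 for *Col6a1* (adjusted p = 0.0730), -0.67 ± 0.18 for *Col6a2* (0.0569) and -0.81 ± 0.18 for *Col6a3* (0.0311), so that *Col6a3* passed the threshold. DESeq2, the tool used by the authors, called *Col6a2* (adjusted p = 0.0349) and *Col6a3* (0.0206) lower on all 13 libraries, but not *Col6a1* (0.0510). The paper names *Col6a2* and *Col12a1* among the collagen genes it reports as downregulated in established Fosl-2(Tg) tendon.

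In the early cohort the collagen VI chains had higher means in Fosl-2(Tg) than in WT tendon, with overlapping groups. *Col6a1* ranged from 1702 to 3237 CPM (median 2337) in WT and from 2240 to 3642 CPM (median 2855) in Fosl-2(Tg) mice, and *Col6a3* from 2436 to 5321 CPM (median 3276) and from 2835 to 6104 CPM (median 4711). Log2 fold changes were 0.27 ± 0.16, 0.39 ± 0.20 and 0.41 ± 0.21 for *Col6a1*, *Col6a2* and *Col6a3*, with adjusted p values of 0.846, 0.834 and 0.834. The test of the difference between the cohorts' genotype effects passed for *Col6a2* (-1.42 ± 0.43 on the log2 scale, adjusted p = 0.0408) and *Col6a3* (-1.60 ± 0.46, adjusted p = 0.0347), and *Col6a1* was just outside it (-1.21 ± 0.40, adjusted p = 0.0583; 0.0234 with DESeq2, and called in 7 of 10 alternatives other than leaving out 1 mouse). With *Col12a1*, 3 of 10 members had a more negative genotype effect in the established cohort, against 4.00% of 16082 genes. With the replicate number as a block within cohorts, 5 members were called, *Col6a1* and *Col22a1* being added to these. The call for *Col6a3* was lost in 6 of 28 fits that each left out 1 mouse (WT early 2, 3 and 7, Fosl-2(Tg) early 2, WT established 1 and 2; adjusted p up to 0.0605). That for *Col6a2* was lost in 16, namely those 6 and the fits without WT early 1 and 6, Fosl-2(Tg) early 3, 4, 5 and 6, WT established 4 and 5, or Fosl-2(Tg) established 1 and 2 (adjusted p up to 0.0713).

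All 3 chains also had lower means in older than in younger mice of either genotype, a comparison that carries the difference in sex with it. In WT tendon, *Col6a2* fell by 0.85 ± 0.20 on the log2 scale (adjusted p = 0.0338), the only member of 10 called, where 2.76% of 15645 genes were called lower. This call was lost in 8 of the 13 fits without 1 mouse (WT early mice 1, 4 and 5 and WT established mice 1, 3, 4, 5 and 6), with adjusted p up to 0.0814. *Col6a1* (-0.62 ± 0.17, adjusted p = 0.0530) and *Col6a3* (-0.65 ± 0.21, adjusted p = 0.0924) did not pass. In Fosl-2(Tg) tendon, *Col6a1*, *Col6a2* and *Col6a3* fell by 1.82 ± 0.34, 2.27 ± 0.36 and 2.25 ± 0.39 on the log2 scale, with adjusted p values of 0.000423, 0.000119 and 0.000248. Every established Fosl-2(Tg) mouse was below every early one for these 3 chains, as for 8.38% of 15470 genes. In all, 7 of 10 members fell between the early and established Fosl-2(Tg) groups, the other 4 being *Col12a1*, *Col13a1*, *Col16a1* and *Col22a1*, while 22.5% of all genes tested fell. These comparisons share libraries with the genotype comparisons.

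The proportions of the chains were steadier than their levels. Per length of canonical transcript, *Col6a1* made up 46.4 ± 2.32% of collagen VI transcripts in established WT and 50.1 ± 3.28% in established Fosl-2(Tg) mice, *Col6a2* 24.5 ± 0.639% and 24.6 ± 1.11%, and *Col6a3* 29.0 ± 1.92% and 25.3 ± 2.59% (SD, n = 6 and 7). The *Col6a3* to *Col6a1* ratio was lower in established Fosl-2(Tg) tendon by 0.31 on the log2 scale (exact permutation test, two-sided, p = 0.0227), which did not hold after Benjamini-Hochberg adjustment over the 8 ratio tests (0.0606). The *Col6a2* to *Col6a1* ratio differed by -0.11 in the established (exact permutation p = 0.165) and 0.13 in the early cohort (exact permutation p = 0.0744).

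Among the FACITs, *Col12a1* was the member called lower in established Fosl-2(Tg) tendon, the only 1 of 10, against 3.37% of genes tested. Collagen XII is the long FACIT that links collagen I fibrils to neighboring matrix. It ranged from 2065 to 2750 CPM (median 2598) in WT and from 852 to 2144 CPM (median 1389) in Fosl-2(Tg) mice, with 6 of the 7 Fosl-2(Tg) mice below all WT mice and mouse 6 inside the WT range. *Col12a1* fell by 0.75 ± 0.20 on the log2 scale (SE), to 59.4% of the WT level, with an adjusted p of 0.0410. The call was lost in 10 of 13 fits that left out 1 mouse (each of the 6 WT mice and Fosl-2(Tg) mice 1, 2, 3 and 5; adjusted p from 0.0536 to 0.0821), and in females alone it was -0.71 with an adjusted p of 0.0761. Without mice 1 and 5 it was -0.56 ± 0.16 (adjusted p = 0.0699), not called. With these 2 fits among them, 8 of 12 alternatives other than leaving out 1 mouse called *Col12a1*, with the lowest adjusted p in DESeq2 (0.00230). Early *Col12a1* levels ranged from 1707 to 2880 CPM (median 2048) in WT and from 1992 to 2970 CPM (median 2419) in Fosl-2(Tg) mice, a log2 fold change of 0.24 ± 0.14 (adjusted p = 0.846), or 0.27 ± 0.11 when same-numbered mice were blocked (unadjusted p = 0.0348, adjusted p = 0.406). The genotype effects of the cohorts differed by -0.997 ± 0.24 on the log2 scale (adjusted p = 0.0136), and this call held in all 28 fits without 1 mouse, with adjusted p of at most 0.0264. In WT mice *Col12a1* had a log2 difference of 0.24 ± 0.14 between established and early tendon (adjusted p = 0.333), unlike its fall by 0.76 ± 0.19 in Fosl-2(Tg) mice (adjusted p = 0.00363).

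*Col14a1*, a FACIT of developing tendon, had no detectable genotype difference. It ranged from 30.4 to 65.5 CPM (median 40.1) in established WT and from 31.1 to 80.7 CPM (median 44.3) in established Fosl-2(Tg) mice, and the groups overlapped throughout. Its log2 fold changes were 0.23 ± 0.23 in the established (adjusted p = 0.528) and -0.21 ± 0.33 in the early cohort (adjusted p = 0.931), where single mice spanned 16.1 to 101 CPM. *Col16a1*, a FACIT of fibrillin microfibrils and thin fibrils, ranged from 237 to 436 CPM (median 372) in established WT and from 62.7 to 394 CPM (median 257) in established Fosl-2(Tg) mice, with the lowest values again in mice 5 and 1. Its log2 fold change was -0.62 ± 0.31 (adjusted p = 0.217), and -0.33 ± 0.17 (adjusted p = 0.293) without those mice. In Fosl-2(Tg) mice it fell by 0.89 ± 0.29 from early to established (adjusted p = 0.0189), a call lost with the keratinocyte score as a covariate (-0.54 ± 0.29, adjusted p = 0.146). The markers of that score differed with stage, so this loss does not tell score from stage.

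**Figure D2:**
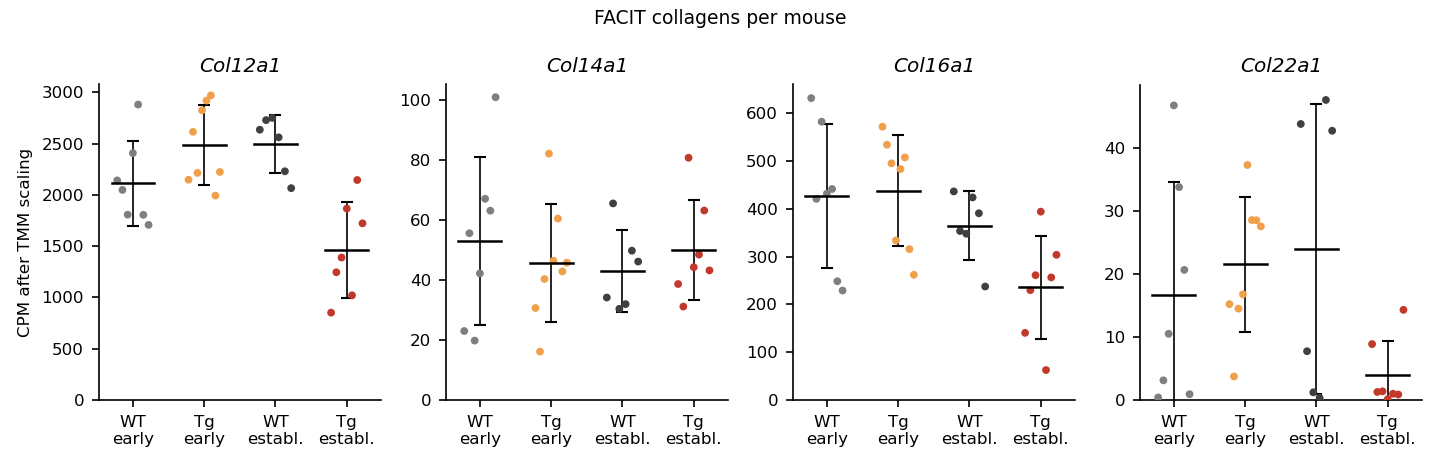
Levels of the FACIT collagens in CPM after TMM scaling (vertical axes, from 0) for each mouse in the 4 groups (points), with the mean (line) and SD (bars, not drawn below 0). *Col12a1* was lower in 6 of 7 established Fosl-2(Tg) mice than in any established WT mouse, *Col14a1* overlapped between all groups, and *Col22a1* spread from 0.353 to 47.5 CPM within established WT mice.

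*Col22a1*, the FACIT of the myotendinous junction, varied most from mouse to mouse. It ranged from 0.353 to 47.5 CPM (median 25.2) in established WT and from 0.151 to 14.3 CPM (median 1.28) in established Fosl-2(Tg) mice, where 5 of 7 mice were below 2 CPM. The log2 fold change was -2.55 ± 1.07 (adjusted p = 0.152). Its relation to the muscle markers of the same library was positive in all 4 groups but did not pass adjustment. Groups of 6 to 8 mice are small, so that failure to pass does not show that a relation is absent. Within groups, Pearson's r between log2 CPM of *Col22a1* and the mean log2 CPM of the 13 muscle markers was 0.887 in early WT (n = 7, permutation p = 0.0155), 0.782 in early Fosl-2(Tg) (n = 8, p = 0.0110, permutation), 0.946 in established WT (n = 6, permutation p = 0.00417) and 0.595 in established Fosl-2(Tg) mice (n = 7, permutation p = 0.144). Spearman's rho was 0.857 (permutation p = 0.0238), 0.619 (p = 0.115), 0.943 (p = 0.0167) and 0.607 (p = 0.167). Over the 40 relations of 10 members in 4 groups, the adjusted p for *Col22a1* was at best 0.147, and none of the other 36 relations passed either. Leaving out the 2 mice farthest from the median muscle score gave r of 0.939, 0.396, 0.938 and 0.940. With the muscle score as a covariate, the established log2 fold change of *Col22a1* was -1.01 (adjusted p = 0.341). Between the stages, *Col22a1* fell by 2.41 ± 0.70 on the log2 scale in Fosl-2(Tg) mice (adjusted p = 0.00982), and with the muscle score the difference was -1.07 and not called (adjusted p = 0.210).

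The FACITs were next set against *Col1a1*, the major chain of the fibrils they coat, within each library. In the established cohort *Col1a1* fell by 2.50 ± 0.63 on the log2 scale in Fosl-2(Tg) tendon (adjusted p = 0.0356), from 73711 ± 19975 to 12919 ± 10479 CPM (SD, n = 6 and 7). The ratio of *Col12a1* to *Col1a1* was 5.12-fold higher in Fosl-2(Tg) than in WT mice, and that of *Col14a1* to *Col1a1* was 10.5-fold higher. In log2 units, the *Col12a1* ratio was -2.49 ± 1.44 in Fosl-2(Tg) and -4.84 ± 0.28 in WT mice, and the *Col14a1* ratio was -7.36 ± 1.83 and -10.75 ± 0.60. Both ratios were higher in all 7 Fosl-2(Tg) mice than in any WT mouse (exact permutation test over 1716 groupings, two-sided, p = 0.00117 for each, adjusted over 8 tests 0.00466). With the groups fully apart, this p is near the least that so many groupings allow. Without mice 1 and 5 the log2 differences were 1.57 and 2.43 (exact permutation p = 0.00216 for both). The ratios show unequal change of the chains within a library, and *Col12a1* CPM was itself lower in these mice. *Col1a1* alone was lower in every Fosl-2(Tg) than in any WT mouse, and *Col14a1* was not called. The *Col14a1* ratio thus mainly restates the fall of *Col1a1*. In the early cohort the *Col12a1* ratio differed by -0.38 (exact permutation p = 0.133) and the *Col14a1* ratio by -0.78 (exact permutation p = 0.164), with overlapping groups.

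**Figure D3:**
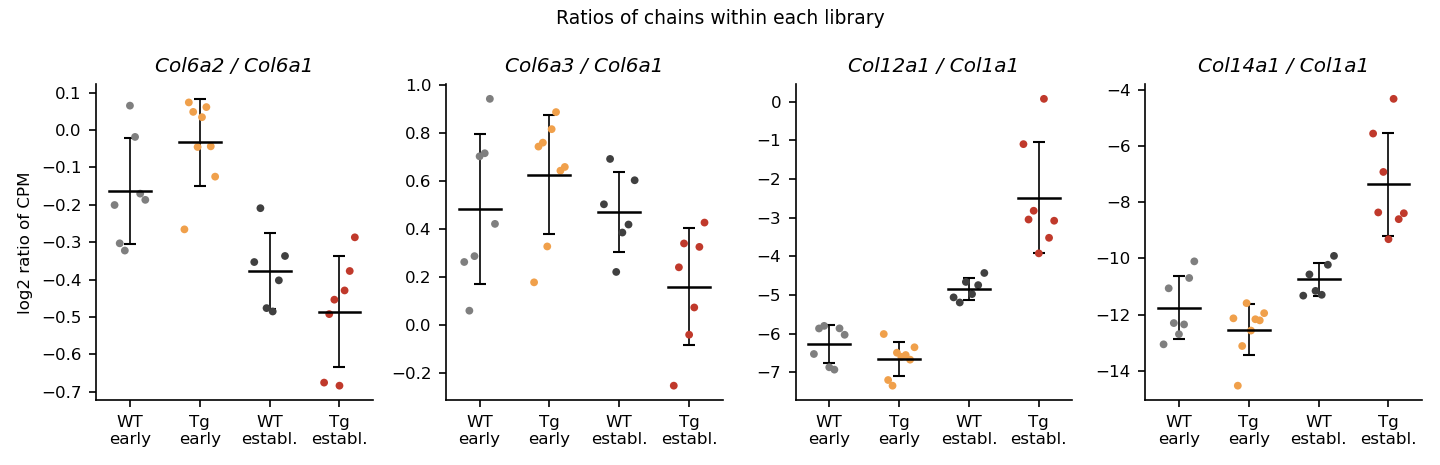
Ratios of CPM within each library on a log2 scale (vertical axes, not starting at 0) for each mouse in the 4 groups (points), with the mean (line) and SD (bars). The ratios of *Col12a1* and *Col14a1* to *Col1a1* were higher in every established Fosl-2(Tg) mouse than in any established WT mouse, and the ratios among collagen VI chains overlapped between genotypes.

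*Col7a1*, the anchoring fibril gene, was among the lowest members, with 21 to 349 counts per library. It ranged from 1.35 to 5.67 CPM (median 2.51) in established WT and from 2.42 to 13.2 CPM (median 4.57) in established Fosl-2(Tg) mice, and 3 of 7 Fosl-2(Tg) mice (5, 6 and 7) were above all WT mice. The log2 fold change was 1.03 ± 0.44 (adjusted p = 0.159). With the muscle score as a covariate it was 1.36 with an adjusted p of 0.0143, the only one of 12 such alternatives to call it, and none of the 13 fits without 1 mouse did. In the early cohort the log2 fold change was 0.56 ± 0.27 (adjusted p = 0.828), and the test of the difference between cohorts gave 0.46 ± 0.52 (adjusted p = 0.606).

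*Col13a1*, a transmembrane collagen of focal adhesions and of the neuromuscular junction, ranged from 10.4 to 19.7 CPM (median 14.2) in established WT and from 1.84 to 12.3 CPM (median 7.35) in established Fosl-2(Tg) mice. Only mouse 4 of the Fosl-2(Tg) group reached the WT range. The log2 fold change was -1.03 ± 0.30 with an adjusted p of 0.0546, and without mouse 4 or mouse 5 the adjusted p was 0.0275 or 0.0314. Of 12 alternatives other than leaving out 1 mouse, 6 called it. Their adjusted p ranged from 0.00792 with DESeq2 to 0.0688 with the replicate block. The early log2 fold change was -0.26 ± 0.17 (adjusted p = 0.853), and in Fosl-2(Tg) mice *Col13a1* fell by 0.96 ± 0.26 from early to established (adjusted p = 0.00689; 0.0526 with the keratinocyte score as a covariate). The markers of that score differed with stage.

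*Col23a1*, a transmembrane collagen that binds integrin α2β1, had its genotype difference in a few mice. In established Fosl-2(Tg) tendon, mice 6 and 7 were at 34.9 and 35.6 CPM while the other 5 ranged from 6.17 to 12.8 CPM, and WT mice ranged from 9.82 to 15.5 CPM (median 10.6). The group thus reached both above and below the WT range, and the log2 fold change was 0.50 ± 0.41 (adjusted p = 0.448). In early Fosl-2(Tg) tendon, mice 4, 5 and 6 were at 22.8, 20.2 and 31.6 CPM, above the early WT maximum of 14.6 CPM, and the other 5 ranged from 6.84 to 12.5 CPM. The early log2 fold change of 0.73 ± 0.31 had an unadjusted p of 0.0317 and an adjusted p of 0.782. *Col23a1* was the only member with an unadjusted p under 0.05 in the early cohort, where 6.06% of 15138 genes were, and 0 members passed the adjusted threshold in edgeR or DESeq2, where 0.0396% of genes did in edgeR.

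**Figure D4:**
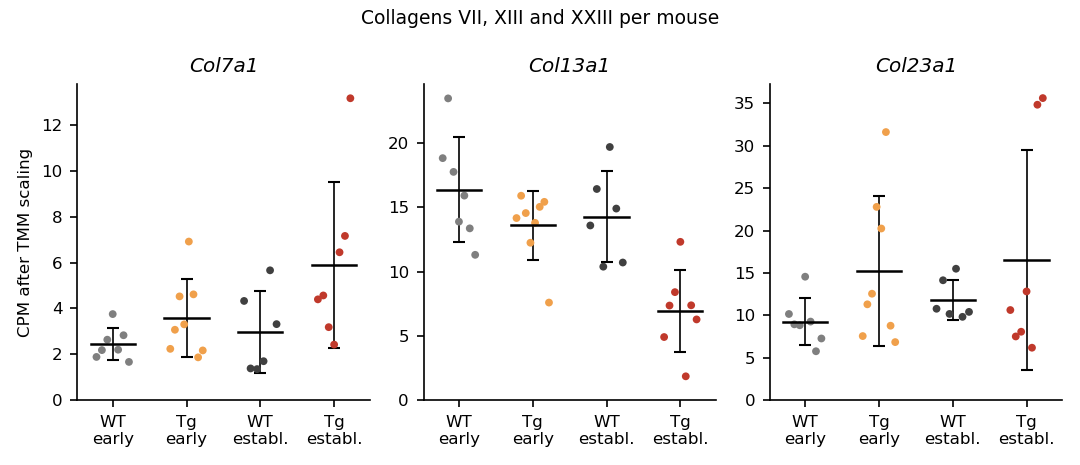
Levels of *Col7a1*, *Col13a1* and *Col23a1* in CPM after TMM scaling (vertical axes, from 0) for each mouse in the 4 groups (points), with the mean (line) and SD (bars). *Col13a1* was below the WT range in 6 of 7 established Fosl-2(Tg) mice, and 2 of 7 had *Col23a1* near 35 CPM.

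Across the 10 members, established log2 fold changes had a median of -0.84, against 0.01 over all 15862 genes tested. Before adjustment, 6 members were lower at p under 0.05 (the collagen VI chains, *Col12a1*, *Col13a1* and *Col22a1*), as were 13.1% of genes, and 1 was higher (*Col7a1*), as were 13.5% of genes. Early log2 fold changes had a median of 0.32, against -0.01 over all genes, with 8 members above 0.

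**Figure D5:**
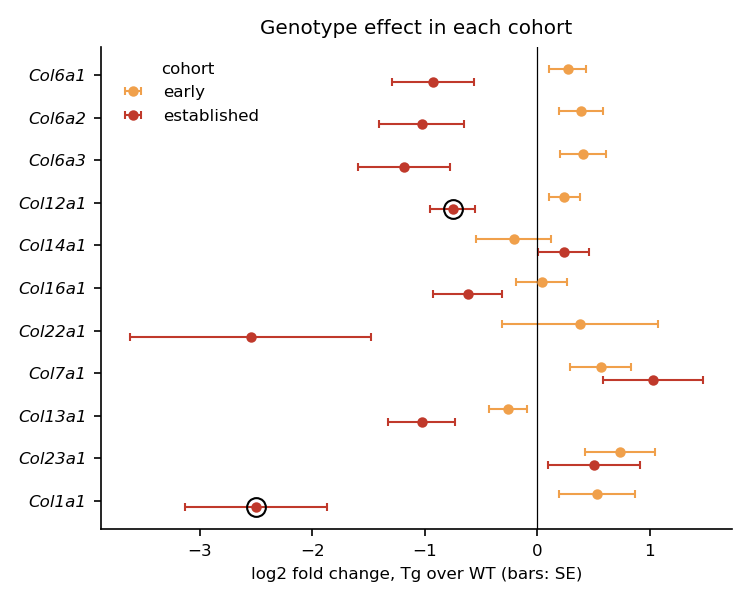
Log2 fold change of Fosl-2(Tg) over WT (horizontal axis) with SE (bars) for the 10 members and *Col1a1* in the early and the established cohort (colors), with rings around adjusted p of at most 0.05. Only *Col12a1* and *Col1a1* are ringed, in the established cohort, and the collagen VI chains lie on opposite sides of 0 in the 2 cohorts.

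Other genes of the pathway were taken from lists of collagens, receptors, binding partners and processing enzymes. Of 11 fibril-forming collagen genes tested, 4 were called lower and none higher in established Fosl-2(Tg) tendon, namely *Col1a1*, *Col1a2* (-2.23 ± 0.57 on the log2 scale, adjusted p = 0.0367), *Col2a1* (-1.63 ± 0.35, adjusted p = 0.0207) and *Col11a1* (-1.46 ± 0.41, adjusted p = 0.0483), and the list's median was -0.98. Over all genes, 3.37% were called lower and 3.14% higher. Of 13 other non-fibrillar collagens, only 5 had enough counts to be tested and none was called. The remaining collagen VI chain genes were near absence, with *Col6a4* and *Col6a5* at no more than 3 and 13 counts in any library and *Col6a6* at 0.374 ± 0.129 CPM in established WT mice (log2 fold change -0.03 ± 0.31, adjusted p = 0.954). *Col9a3*, a cartilage FACIT chain, had a log2 fold change of 0.32 ± 0.20 (adjusted p = 0.335), and *Col20a1*, another FACIT, 0.25 ± 0.16 (adjusted p = 0.339).

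Among 11 collagen receptor genes, 1 fell and 1 rose in the established cohort, with a list median of -0.32, where 3.37% of all genes fell and 3.14% rose. *Itga2*, the α2 subunit of a collagen-binding integrin, fell by 1.24 ± 0.23 on the log2 scale (adjusted p = 0.0141), from 128 ± 21.8 to 53.8 ± 23.2 CPM. *Itga10*, the α10 subunit of another, rose by 0.81 ± 0.20 (adjusted p = 0.0340), from 107 ± 33.3 to 184 ± 35.0 CPM. *Cspg4*, which encodes the collagen VI receptor NG2, and *Antxr1* were not called. Of 12 matrix binding partners, 2 fell, with a median of -0.49. *Matn2*, an adapter protein of the matrix, fell by 1.15 ± 0.25 (adjusted p = 0.0207), and *Lamb3*, a laminin chain of the epithelial anchoring complex, fell by 1.66 ± 0.34 (adjusted p = 0.0190) from only 1.63 ± 0.865 CPM. Of 6 processing and cleavage genes tested, *Ctsk*, which encodes the collagen-degrading protease cathepsin K, was the only 1 called, at -1.19 ± 0.32 (adjusted p = 0.0442), and *Bmp1*, the procollagen C-proteinase, was at -0.60 ± 0.22 (adjusted p = 0.115). None of these lists held a called gene in the early cohort. The test between cohorts called 5 of 11 fibril-forming collagens, beside 4.00% of all genes, with a more negative effect in the established cohort, namely *Col1a1* (-3.04 ± 0.72, adjusted p = 0.0130), *Col1a2* (-2.69 ± 0.63, 0.0128), *Col2a1* (-2.32 ± 0.62, 0.0245), *Col11a1* (-1.95 ± 0.46, 0.0127) and *Col11a2* (-1.63 ± 0.51, 0.0498). It also called *Itga2* (-1.63 ± 0.27, adjusted p = 0.00198), *Matn2* (-1.35 ± 0.28, adjusted p = 0.00693), *Ctsk* (-1.36 ± 0.37, adjusted p = 0.0265) and *Bmp1* (-0.91 ± 0.26, adjusted p = 0.0339).

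Genes with the most similar pattern were ranked by Pearson's r of log2 CPM over the 28 mice after the 4 group means had been subtracted, among 14573 genes with a mean of at least 1 CPM. For *Col6a1* these were *Col6a2* (r = 0.981), *Col15a1* (0.974) and *Fndc1* (0.960). For *Col12a1* they were *Serpinh1* (0.897), which encodes the collagen chaperone Hsp47, *Htra1* (0.886) and *Igfbp4* (0.882), and for *Col14a1* *Galnt16* (0.911), *Efemp1* (0.906) and *Ano3* (0.898). The points share libraries, depth and tissue composition. Among the members themselves, *Col6a2* and *Col6a3* had an r of 0.972, *Col6a1* and *Col12a1* 0.783, *Col6a1* and *Col16a1* 0.821, and *Col13a1* and *Col16a1* 0.846. Spearman's rho for these pairs, in the same order, was 0.943, 0.823, 0.656 and 0.663. The relations with *Col16a1* were thus weaker by rank, while that of *Col6a1* and *Col12a1* was not. The part of the established Fosl-2(Tg) mice with the lowest collagen VI levels in these values of r was not tested.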

How the data were processed

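Tail tendon RNA of 28 mice was depleted of ribosomal RNA and sequenced by the authors, who mapped the reads with STAR to GRCm39 (GENCODE M26) and counted them per gene with featureCounts. The deposited values are raw counts, with totals of 9645598 to 66894396 per library. Groups, sex and replicate numbers came from the labels. Gene names and lengths came from GENCODE M39, which matched 25505 of 25719 identifiers.

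Genes were filtered with filterByExpr (minimum count 10, minimum total 15), scaled by TMM and compared with edgeR 4.0.16 (quasi-likelihood test, R 4.3.3; limma 3.58.1 for voom), without covariates, within each cohort, within each genotype between stages, and by an interaction term. Values of p were adjusted by Benjamini-Hochberg over all genes tested and called at 0.05. Levels are CPM, with a prior count of 2 for log2 CPM. Chain ratios were compared by exact permutation, two-sided, in scipy 1.17.1. The fits were tested on simulated counts. Each library came from a separate mouse, and litters were not given.

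The genes and lists were chosen with earlier results of these data known. The genes named are all members, *Col1a1*, *Fosl2*, the genes of each list called in a genotype comparison (otherwise up to 2 with the smallest established p) and the 3 most similar genes of *Col6a1*, *Col12a1* and *Col14a1*. *Cspg4*, *Antxr1*, *Col6a4*, *Col6a5* and *Col6a6* were named after their values were seen. Alternatives were DESeq2 1.42.0, RLE scaling, other filters, voom quality weights, marker scores, sex, females only, a replicate block, all libraries in one fit, and each mouse left out. Early mice with the same number deviated together (correlations of 0.301 to 0.478 over 7 pairs, all above 0.1). Their mean was 0.352, against -0.00124 over all pairs of a WT and a Fosl-2(Tg) mouse. The mouse of the same number was the best match in only 1 of the 7, and the labels do not say whether the numbers mark pairs. The block changed no early call of a member.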

Additional observations from a re-analysis of the deposited data

Results flagged for a closer look

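*Col13a1* in early Fosl-2(Tg) mouse 8 was 7.59 CPM, while the other 7 mice of the group ranged from 12.2 to 15.9 CPM, which set it apart from its group by Dixon's criterion. It was the only such value among 56 groups of values examined, where chance would mark about 1 in 20 groups. The genotype effect differed between the established and the early cohort for *Col6a2* (-1.42 on the log2 scale), *Col6a3* (-1.60) and *Col12a1* (-0.997), as tested by the interaction term. Stage, sex and age cannot be told apart in that difference. Without the 2 established males these 3 genes were again called, but stage and sex then coincide fully, so that fit cannot separate them.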

How the results depend on the processing

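Of the 10 members, 1 was called in the established comparison. That number was 4 with DESeq2 and with voom quality weights, 5 with the keratinocyte score and with all 28 libraries in one fit, 3 with the muscle score and with sex as a covariate, and 0 without the low-count filter, in females only and with the replicate block, and it was 0 to 2 when each mouse was left out. Under the muscle score, *Col7a1* was called as higher. The keratinocyte score was 0.400 in established Fosl-2(Tg) mouse 5 and -0.559 to -0.0538 in the other established mice. The fit with that score thus partly sets mouse 5 apart. Deviations of established mice with the same number had correlations of -0.303 to 0.716 (4 of 6 pairs above 0.1, own number best in 2). Their mean was 0.260, against 0.00546 over all pairs of a WT and a Fosl-2(Tg) mouse. Whether these numbers mark pairs is not given in the labels. In the difference between cohorts the 3 called members became 5 with the replicate block and with the muscle score. They became 4 with DESeq2, voom, the keratinocyte score, without the established males and without mice 1 and 5. They were 2 without the low-count filter, and 1 to 4 with each mouse left out. Between stages in WT mice, 1 member was called, with 3 under DESeq2, 2 under voom and under the muscle score, 0 under the keratinocyte score, and 0 to 2 with each mouse left out. The 7 members called between stages in Fosl-2(Tg) mice were 7 to 8 with each mouse left out, the eighth being *Col7a1* without early Fosl-2(Tg) mouse 5 (adjusted p = 0.0413), and 5 under the keratinocyte score, which lost *Col13a1* and *Col16a1*. Keratinocyte markers differed with stage, which limits the stage fits with that score. The early count was 0 in every alternative run. The *Col6a3* to *Col6a1* difference in the established cohort was -0.31 in females only (exact permutation p = 0.0584), -0.21 without mice 1 and 5 (exact permutation p = 0.0714) and -0.36 to -0.24 with each mouse left out, and the early *Col6a2* to *Col6a1* difference was 0.10 to 0.17.

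Direction changed only for log2 values that were not called. *Col23a1* was -0.037 under voom and -0.088 with the replicate block in the established comparison, -0.31 under voom and -0.20 to 0.36 with each mouse left out between stages in Fosl-2(Tg) mice, and 0.011 without mice 1 and 5 and -0.56 to 0.0035 with each mouse left out in the difference between cohorts. In the early comparison *Col14a1* was 0.093 under voom, 0.047 under the keratinocyte score and -0.38 to 0.020 with each mouse left out, and *Col16a1* was -0.079, -0.037 and -0.072 to 0.17. Between stages in WT mice, *Col7a1* was -0.19 and *Col22a1* -1.12 under voom, *Col13a1* 0.046 and *Col16a1* 0.0024 under the keratinocyte score, and *Col7a1* -0.050 to 0.41 with each mouse left out. *Col14a1* was -0.013 to 0.31 between stages in Fosl-2(Tg) mice. The causes of these changes were not tested.

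Over all genes, the established fit called 1032, against 2146 by DESeq2, 1984 by voom, 2001 and 1714 with the keratinocyte and muscle scores, 1663 with all libraries and 560 in females only. The early fit called 6, against 23 by DESeq2, 10 by voom and 11 with the replicate block. The difference between cohorts had 1195, against 1793 by DESeq2, 1951 by voom, 2000 with the replicate block and 725 without the established males, and the WT stage fit 742, against 1583, 1613 and 1272 by DESeq2, voom and the muscle score and 1 with the keratinocyte score. *Col7a1* and *Col22a1* rested on as few as 21 and 3 counts in a library, where depth limits precision.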
